A study of Mus musculus with 32 samples.

Results

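The genes described here are 9 enzymes of folate, thymidylate and uracil metabolism, namely Shmt1, Shmt2, Mthfd1, Mthfd2, Tyms, Dctd, Ung, Dut and Tk1. They were found by their gene names in the array files, where 15 of 41174 probes carry one of these names. All 9 were among the 20553 genes kept by a filter that asked for a probe well above background on at least 4 arrays. They were selected on measured values, because Shmt1, Ung and Dctd had been among the largest falls in level after irradiation. The choice did not say which arrays showed this. The changes after irradiation are therefore given as a description with no test in all 4 genotypes, and so is the difference between the responses of p53+/+ and p53-/-. Tests are given for genotypes compared at a time, and for the difference between the responses of P72 and R72. The comparison of irradiated p53+/+ and p53-/- may not be independent of the choice, and its p-values are a description.

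RNA of thymocytes was measured on 32 single-colour Agilent mouse arrays, and each array held RNA pooled from 2 C57Bl/6 mice of 6 weeks, 1 male and 1 female. P72 mice and R72 mice, which carry the proline or the arginine form of p53 at codon 72, were untreated (0 h) or taken 2 h or 4 h after whole-body gamma irradiation with 5 Gy, with 4 arrays for each genotype and time from independent experiments. Mice labelled p53+/+ and p53-/- were given the same dose, and each genotype had 2 untreated arrays but only 1 for 2 h and 1 for 4 h. The series asks how the codon 72 forms of p53 differ in the genes they regulate. The labels used here do not say how the P72, R72 and p53-/- alleles were made, or whether the 2 untreated arrays of p53+/+ or of p53-/- came from different pools. Where they did not, the spread between these 2 arrays may be technical only, and the fit counts 1 pool as 2. The p-values of p53+/+ against p53-/- rest on the spread within the groups of all 32 arrays.

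Folate coenzymes carry single-carbon units, which serine donates through the serine hydroxymethyltransferases. One such unit turns dUMP into dTMP, a building block of DNA. When dTMP runs short, dUTP is built into DNA in place of dTTP, and uracil is then cut out again by base excision repair. The enzymes are known for high expression in proliferating cells, and the thymus holds many dividing thymocytes that are very sensitive to radiation.

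The level of a gene is the log2 processed intensity of its probe minus the 75th percentile of the array, so that 0 is the 75th percentile and 1 unit is a doubling of signal. Intensities of different probes cannot be ranked against each other, and only differences of 1 probe between arrays are compared. The 75th percentile itself lay between 260 and 1017 intensity units. The share of probes well above background ran from 52.2% to 71.2% over the arrays. The 15 markers of double positive thymocytes, the main cell type of the thymus, were well above background on all 32 arrays. R72 2 h replicate 4 stood apart, with the highest percentile and a median absolute difference of 0.321 to 0.441 to the other arrays of its group, against 0.118 to 0.258 for all other pairs within P72 and R72 groups. Cdkn1a, the cell cycle inhibitor that p53 switches on, was 4.49 ± 0.24 (log2, SE) higher at 4 h than at 0 h in P72 and 3.70 ± 0.24 higher in R72 (limma, adjusted p = 1.65e-11 and 4.7e-10). It was 4.54 ± 0.33 higher in irradiated than in untreated p53+/+ arrays (limma, adjusted p = 1.09e-09), and the same difference in p53-/- was 1.00 ± 0.33 (limma, adjusted p = 0.167). The probe of Trp53, the gene targeted in p53-/-, did not tell p53+/+ from p53-/- before irradiation, with a difference of 0.24 ± 0.24, or after it, with 0.53 ± 0.24 (log2, SE; limma, adjusted p = 0.803 and 0.111). Which part of Trp53 is deleted is not given in the sources used here, so that this probe cannot check the labels.

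Sequences of the probes are shown for Shmt1, because its probes gave different answers below, and for Tyms, because its main probes overlap. Coordinates are those of the array files, build mm7, and each probe is written 5′ to 3′. The Shmt1 probe A_52_P673499 lies at chr11:60871155-60871214 and stands for the gene, since its mean level was the higher. The probe A_52_P120055 lies at chr11:60880152-60880211. Shmt1 is on the minus strand in RefSeq, so A_52_P673499 is the one nearer the 3′ end of the gene. No annotation of build mm7 was used here to place the probes in exons.
A_52_P673499: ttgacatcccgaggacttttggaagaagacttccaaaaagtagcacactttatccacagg
A_52_P120055: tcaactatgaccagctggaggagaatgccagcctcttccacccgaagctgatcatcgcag
The Tyms probe A_51_P398366 lies at chr5:29093977-29094036 and A_52_P292651 at chr5:29093997-29094890, which spans more than the probe's length. They share 40 bases with 1 mismatch, C17A counted from base 1 of A_51_P398366, and capitals mark that base in both.
A_51_P398366: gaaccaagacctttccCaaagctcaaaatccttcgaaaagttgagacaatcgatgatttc
A_52_P292651: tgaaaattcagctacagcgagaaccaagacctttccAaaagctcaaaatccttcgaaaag
The array also carries a gene named Tyms-ps, a processed copy of Tyms, so that part of the Tyms signal may come from that copy.

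The promoters are shown for 3 members, Mthfd1 and Tyms because each is the one with a certain motif and Shmt1 because its difference with time is the largest, and each window is the 250 bases before the start site in RefSeq, build GRCm38.p6, in the direction of the gene. Motifs were searched on both strands and are in capitals. Shmt1 at chr11:60811266-60811515, minus strand, holds a reversed CCAAT box. Mthfd1 at chr12:76254982-76255231, plus strand, holds a reversed CCAAT box and the E2F-like word TTCCCGC on the reverse strand. Tyms at chr5:30073626-30073875, minus strand, holds the E-box CACGTG.
Shmt1: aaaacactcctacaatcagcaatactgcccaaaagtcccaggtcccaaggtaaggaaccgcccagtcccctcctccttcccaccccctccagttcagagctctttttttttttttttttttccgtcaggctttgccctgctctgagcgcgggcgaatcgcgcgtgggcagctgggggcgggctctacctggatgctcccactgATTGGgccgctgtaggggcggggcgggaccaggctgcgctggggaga
Mthfd1: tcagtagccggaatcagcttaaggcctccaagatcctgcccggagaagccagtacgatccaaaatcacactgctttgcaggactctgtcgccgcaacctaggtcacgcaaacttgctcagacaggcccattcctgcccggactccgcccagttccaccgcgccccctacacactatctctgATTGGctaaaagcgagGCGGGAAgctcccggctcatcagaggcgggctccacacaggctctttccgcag
Tyms: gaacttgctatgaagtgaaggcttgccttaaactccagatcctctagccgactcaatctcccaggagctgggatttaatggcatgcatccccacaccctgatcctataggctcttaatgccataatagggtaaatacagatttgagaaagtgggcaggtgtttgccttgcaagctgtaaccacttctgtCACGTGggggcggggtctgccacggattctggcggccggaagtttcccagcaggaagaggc
The 9 members had 11 such windows, since Dctd has 3. E2F-like words (the word TTGGCGC, the word TTCCCGC, the word TTCGCGC or the word TTGCCGC) were in 1 of the 11, that of Mthfd1, and in 7.89% of all 32851 windows of the same length. CACGTG was in 1 of the 11, that of Tyms, and in 6.02% of all windows. CCAAT was in 5 of the 11, those of Shmt1, Mthfd1, Mthfd2 and Dctd, and in 33.8% of all windows. The Dctd windows that hold it overlap and share the same box, so that 1 box is counted more than once. A match to a few letters is no site of binding, and windows without a match say only that these letters are not there.

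Shmt1, the cytoplasmic serine hydroxymethyltransferase, had the largest difference with time of the 9. The 4 P72 arrays read -0.86, -1.04, -1.14 and -0.74 at 0 h, -2.62, -2.08, -2.41 and -2.39 at 2 h, and -3.80, -3.73, -3.67 and -3.07 at 4 h. The R72 arrays read -0.94, -0.65, -0.66 and -0.29 at 0 h, -1.97, -2.64, -2.22 and -1.62 at 2 h, and -3.42, -3.40, -3.59 and -3.15 at 4 h. No array of a later time overlapped one of an earlier time in either genotype. The P72 mean was 6.14-fold lower at 4 h than at 0 h, a difference of -2.62 ± 0.20 (log2, SE), and the R72 mean was 6.77-fold lower, a difference of -2.76 ± 0.20. At 2 h these differences were -1.43 and -1.48. With normexp background correction, another way to take local background off the signal, the 4 h differences were -1.13 and -1.41.

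That account rests on 1 of the Shmt1 probes. The probe A_52_P120055, whose sequence stands above, was well above background on all 32 arrays and had other courses. Its P72 means were -2.56 at 0 h, -3.05 at 2 h and -2.52 at 4 h, and its R72 means were -2.43, -3.11 and -2.74. On this probe P72 differed from 0 h by -0.49 ± 0.16 at 2 h and by 0.04 ± 0.16 at 4 h (log2, SE), and R72 by -0.68 and -0.31. Both probes were lower at 2 h than at 0 h in both genotypes, but from 2 h to 4 h the second was 0.53 higher in P72 and 0.37 higher in R72 while the first was lower. The level of Shmt1 RNA at 4 h is therefore uncertain.

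**Figure D1:**
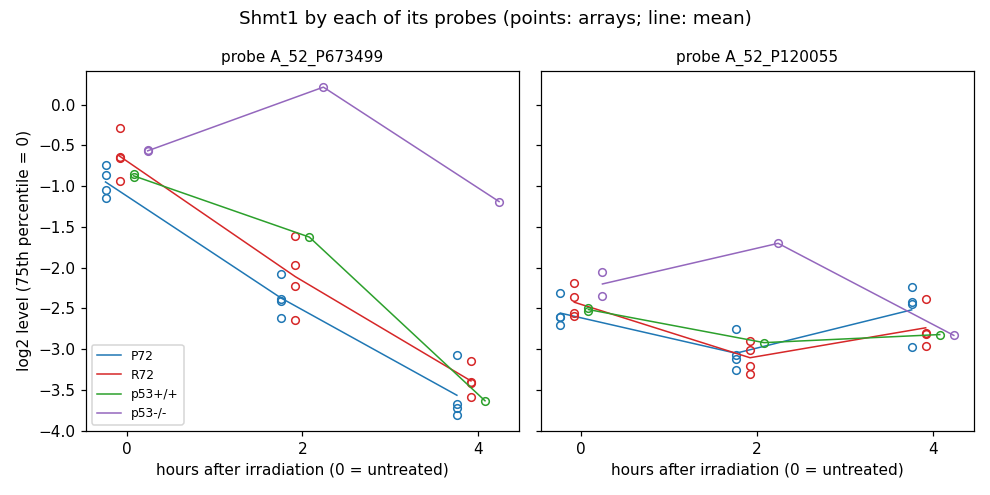
Level of Shmt1 by each of its probes (log2, 0 = 75th percentile of the array) against hours after irradiation, with a point for each array and lines through the group means. On A_52_P673499 the P72, R72 and p53+/+ arrays reach -3.07 or less at 4 h, whereas on A_52_P120055 the 4 h arrays lie between -2.97 and -2.23.

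Shmt2, the mitochondrial enzyme of the same reaction, had the tightest arrays. P72 read 1.47, 1.56, 1.54 and 1.77 at 0 h, 0.61, 0.83, 0.47 and 0.89 at 2 h, and 0.05, 0.06, -0.03 and 0.10 at 4 h. R72 read 1.44, 1.56, 1.66 and 1.52 at 0 h, 0.69, 0.57, 0.40 and 0.43 at 2 h, and 0.09, 0.04, -0.04 and -0.02 at 4 h. The 3 times were fully apart in both genotypes. The mean was 2.91-fold lower at 4 h than at 0 h in P72 and 2.89-fold lower in R72, differences of -1.54 and -1.53, each ± 0.09 (log2, SE).

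Mthfd1 and Mthfd2 interconvert the forms of folate-bound single-carbon units in the cytoplasm and in mitochondria. Mthfd1 was the only member whose mean was higher at 2 h than at 0 h, by 0.33 ± 0.15 in P72 and 0.31 ± 0.15 in R72 (log2, SE). Its P72 means were 1.53 ± 0.25 at 0 h, 1.86 ± 0.18 at 2 h and 1.20 ± 0.18 at 4 h (SD, n = 4), and the 0 h and 2 h arrays overlapped in both genotypes. At 4 h it differed from 0 h by -0.33 in P72 and -0.54 in R72. On its second probe the difference at 2 h was -0.04 in P72 and 0.09 in R72, and at 4 h it was -0.79 and -0.94. The early difference of Mthfd1 is thus not shared by its probes, while the later one is lower on both. Mthfd2 had P72 means of -0.53, -0.75 and -1.28 and R72 means of -0.51, -0.92 and -1.15, and differed from 0 h at 4 h by -0.75 ± 0.15 and -0.64 ± 0.15 (log2, SE). All its 4 h arrays lay below all its 0 h arrays in each genotype.

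Tyms, thymidylate synthase, makes dTMP from dUMP. Its P72 means were 4.40, 4.24 and 3.44 and its R72 means 4.44, 4.34 and 3.55 at 0, 2 and 4 h. Little separated 2 h from 0 h, with differences of -0.15 ± 0.16 and -0.10 ± 0.16 (log2, SE), whereas all 4 h arrays were below all 0 h arrays, by -0.96 and -0.89 in the mean. The overlapping probe A_52_P292651 gave -1.00 and -0.89 at 4 h. The remaining Tyms probe, A_51_P375761, was dim, at -3.12 in the mean over all arrays, and its 4 h differences were 0.08 in P72 and -0.09 in R72. At 2 h it gave 0.37 and 0.08, also of the other sign than the main probe. It was designed on another transcript record than the other Tyms probes.

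Dctd, dCMP deaminase, supplies dUMP from dCMP, and its signal was near background. It was well above background on 20 of 32 arrays. P72 read -3.57, -3.55, -3.41 and -2.64 at 0 h, -5.29, -4.69, -4.69 and -4.77 at 2 h, and -5.47, -6.31, -5.83 and -4.88 at 4 h. R72 read -3.89, -3.18, -3.38 and -3.01 at 0 h, -4.73, -5.86, -5.07 and -4.42 at 2 h, and -5.38, -5.44, -5.47 and -4.93 at 4 h. All irradiated arrays were below all untreated ones. None of the 4 P72 arrays at 4 h was well above background, and as measured P72 was 5.02-fold lower at 4 h than at 0 h. This fold is an estimate near background and no lower bound. Only 1 of 4 R72 arrays at 4 h, 3 of 4 P72 arrays and 2 of 4 R72 arrays at 2 h were above background. The second Dctd probe, A_52_P183826, was well above background on 15 of 32 arrays. It gave -1.58 and -1.05 at 2 h, and -0.88 ± 0.51 and -1.30 ± 0.51 at 4 h (log2, SE), in P72 and R72, and was 0.70 higher at 4 h than at 2 h in P72. With normexp background correction the main probe differed by 0.19 between 4 h and 0 h in P72 and by -0.34 in R72. The level of Dctd at 4 h is therefore uncertain.

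Dut, dUTP pyrophosphatase, turns dUTP into dUMP and so both feeds Tyms and keeps uracil out of DNA. P72 read 5.82, 5.72, 5.85 and 5.94 at 0 h, 5.30, 5.53, 5.75 and 5.59 at 2 h, and 4.67, 4.43, 4.74 and 4.83 at 4 h. R72 read 5.59, 5.88, 5.93 and 6.03 at 0 h, 5.40, 5.36, 5.52 and 5.70 at 2 h, and 4.84, 4.85, 4.87 and 4.88 at 4 h. The 2 h arrays overlapped the untreated ones, and the 4 h arrays were below both. The difference from 0 h at 4 h was -1.16 ± 0.11 in P72 and -1.00 ± 0.11 in R72 (log2, SE), and -1.15 and -0.91 on its second probe. Tk1, thymidine kinase, which salvages thymidine and is known for peaking in S phase, had P72 means of 2.98, 2.87 and 2.20 and R72 means of 2.98, 2.58 and 2.00. Its difference at 4 h was -0.79 ± 0.13 in P72 and -0.98 ± 0.13 in R72 (log2, SE), with all 4 h arrays below all 0 h arrays.

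Ung, uracil-DNA glycosylase, cuts uracil out of DNA. P72 read 1.38, 1.28, 1.50 and 1.84 at 0 h, 0.30, 0.36, 0.31 and 0.31 at 2 h, and -0.81, -0.84, -0.72 and -0.46 at 4 h. R72 read 0.94, 1.56, 1.59 and 1.43 at 0 h, 0.04, -0.21, 0.04 and 0.41 at 2 h, and -0.49, -0.69, -0.79 and -0.79 at 4 h. Each later time lay wholly below the earlier one in both genotypes. The mean was 4.62-fold lower at 4 h than at 0 h in P72 and 4.19-fold lower in R72, differences of -2.21 ± 0.15 and -2.07 ± 0.15 (log2, SE).

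**Figure D2:**
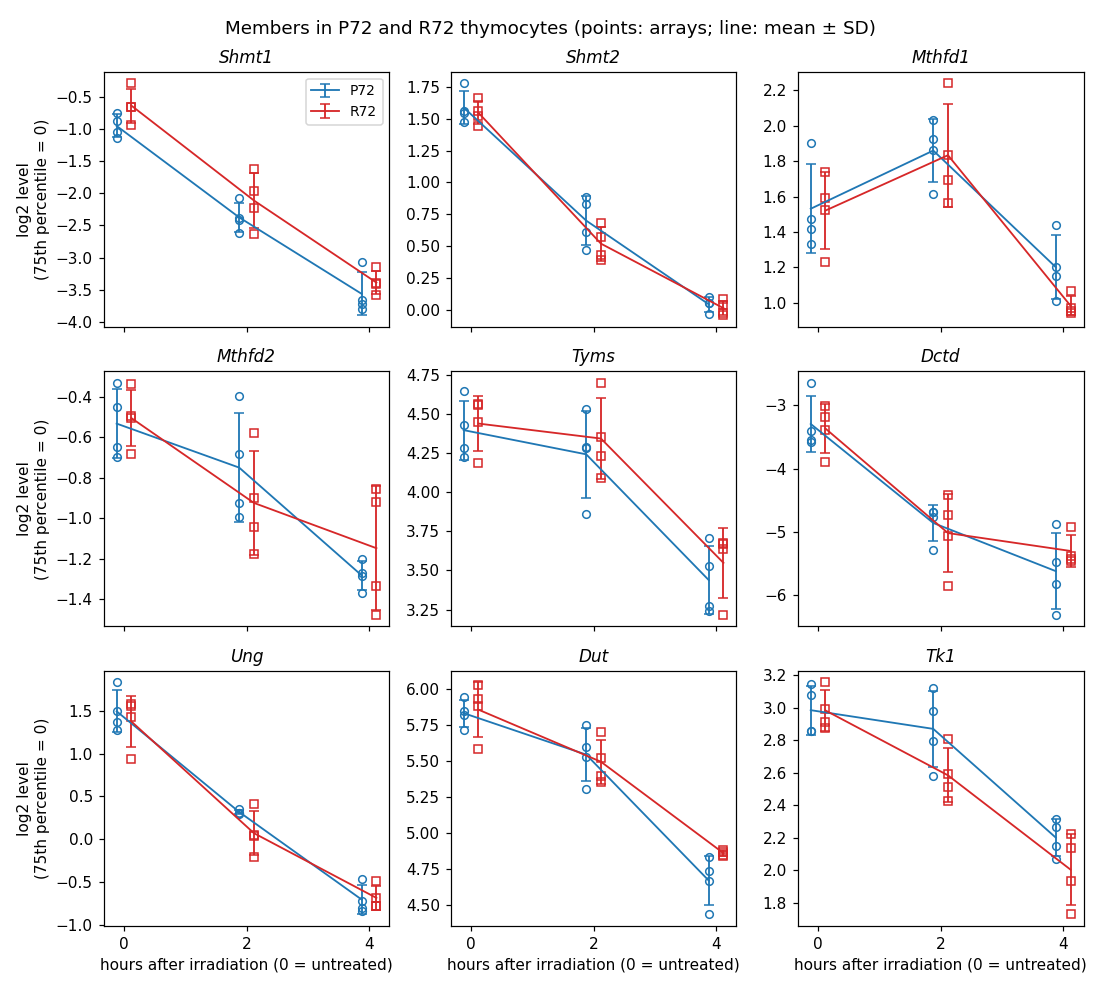
Levels of the 9 members (log2, 0 = 75th percentile of the array) against hours after irradiation in P72 (circles) and R72 (squares), with a point for each array and lines through group means ± SD. Both genotypes run close together, and Mthfd1 alone has a higher mean at 2 h than at 0 h.

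The size of the difference at 2 h varied among the members. Shmt1, Shmt2, Dctd and Ung were lower at 2 h already, with differences from 0 h of -0.88 to -1.65 over both genotypes. Mthfd2, Tyms, Dut and Tk1 differed by -0.10 to -0.42 at 2 h and by -0.64 to -1.16 at 4 h. As a part of the 4 h difference these do not fall into separate kinds, since Mthfd2 in R72 had -0.42 at 2 h and -0.64 at 4 h. Whether members differ in timing was not tested. The median over the 9 members at 4 h was -1.16 in P72 and -1.00 in R72, beside 0.12 and 0.11 over all genes tested. The members were not tested here, and shares of all genes called (limma, adjusted p under 0.05) are given as background. In P72 8 members had a lower mean at 2 h and 9 at 4 h, where 14.5% and 56.2% of all genes were called. Called lower were 4.61% and 19.5% of all genes. In R72 8 and 9 members had a lower mean, where 12.8% and 44.4% of all genes were called in either direction. Called lower were 6.35% and 14.7% of all genes. Nothing is read from the members' counts, because the members were picked for their falls. In bulk samples, fewer cells of a type and less RNA per cell cannot be told apart.

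**Figure D3:**
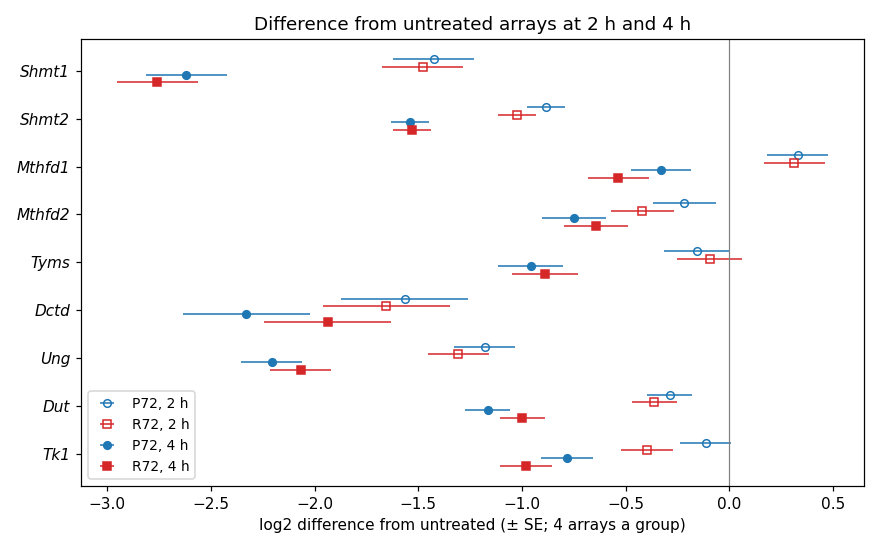
Difference of each member from the untreated arrays (log2, ± SE) at 2 h (open) and 4 h (filled) in P72 (circles) and R72 (squares), 4 arrays a group. At 4 h all points lie below 0, from -0.33 to -2.76, and at 2 h Mthfd1 lies above 0.

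Over the 24 P72 and R72 arrays the levels of Shmt2 and Ung correlated with Pearson's r = 0.98, Shmt1 and Ung with 0.97, and Tyms and Dut with 0.95, while Shmt2 and Mthfd1 had 0.39. These coefficients describe 6 groups in time order on shared arrays and carry no p. By the same measure, the genes outside the 9 most like Shmt1 were Timm8a1, Polr1b and Ddx18 (r = 0.98, 0.97 and 0.97), and those most like Shmt2 were Apex1, Srm and Cdk4 (0.99, 0.99 and 0.98). The genes most like Ung were Fbl, Psat1 and Hspd1 (0.98 each), those most like Dctd were Ldha, Uqcc2 and Ebna1bp2 (0.96 each), and those most like Mthfd1 were Pask, BC051230 and Rnf144a (0.93, 0.92 and 0.91). Tyms ran most like Tyms-ps, Pclaf and H2az1 (0.98, 0.98 and 0.97), Dut like Slbp, Bid and 1700040I03Rik (0.98 each), and Tk1 like Mcm6 and Ccne1 (0.98 and 0.97). For Mthfd2 they were Prmt3, the transcript ENSMUST00000037336 and Ercc6l (0.96, 0.93 and 0.92).

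The first question of the series is whether P72 and R72 differ. None of the 9 members passed an adjusted p of 0.05 (limma) between the genotypes at 0 h, 2 h or 4 h or over all times, where 0.895%, 1.25%, 1.24% and 9.49% of all genes tested were called. Several slides held arrays of only P72 or only R72, so that genotype and slide are partly confounded. With the slide as a fixed block 0.637% of all genes were called over all times, and with the day of scanning 4.47%. No member was called with either block. Unadjusted p-values were under 0.05 for 0, 1, 0 and 2 members. At 2 h this was Tk1, with R72 arrays at 2.81, 2.59, 2.51 and 2.42 and P72 arrays at 2.58, 2.79, 2.98 and 3.12. The arrays overlapped, and P72 was higher by 0.29 ± 0.13 (log2, SE; limma, adjusted p = 0.258). Over all times the 2 were Tk1, higher in P72 by 0.16 ± 0.07, and Shmt1, with a difference of -0.25 ± 0.11, both with an adjusted p of 0.169 (limma). On the second Shmt1 probe that difference was 0.05 (limma, adjusted p = 0.792). Dut at 4 h was the only member whose P72 arrays were all below the R72 arrays, by -0.19 ± 0.11 in the mean (limma, adjusted p = 0.471).

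The size of a genotype difference was bounded as follows. At 4 h the 95% interval of P72 minus R72 reached from -0.96 to 0.32 for Dctd, the dimmest member, and for the other 8 the intervals lay between -0.58 and 0.52 (log2). That of Shmt2 was the narrowest, -0.16 to 0.22. The response from 0 h to 2 h or to 4 h differed between the genotypes for 0 members (limma, adjusted), with 0 unadjusted p-values under 0.05 at either time, where 0.00487% and 0% of all genes were called. The interval of that difference at 4 h was -0.44 to 0.72 for Shmt1, -0.57 to 0.30 for Ung and -0.28 to 0.26 for Shmt2. These intervals do not show that the genotypes act alike. On the remaining Tyms probe, P72 was higher than R72 at 2 h by 0.55 ± 0.13 and over all times by 0.42 ± 0.07 (log2, SE; limma, adjusted p = 0.0309 and 0.000804), whereas the main Tyms probe gave -0.10 and -0.08.

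The p53+/+ and p53-/- mice ask which of these changes need p53. Their arrays are other pools than those of P72 and R72, hybridised on slides of their own. Without irradiation none of the 9 members passed the test between them (limma, adjusted p from 0.685 to 0.966; 0 unadjusted p-values under 0.05), where 0.715% of all genes were called. On the remaining Tyms probe p53+/+ had the higher mean, by 0.73 ± 0.18 (log2, SE; limma, adjusted p = 0.0534). The 2 untreated arrays of a genotype lay close together, at -0.86 and -0.89 for Shmt1 in p53+/+ and -0.56 and -0.57 in p53-/-.

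After irradiation 8 of the 9 members were lower in p53+/+ than in p53-/- (limma, adjusted p under 0.05, 2 h and 4 h averaged), where 8.23% of all genes were called lower and 21.7% were called in either direction. The rule names no arrays for the falls, so this comparison, which holds the irradiated p53+/+ arrays, may not be independent of the choice. Its count and its p-values, here and below, are therefore given as a description. Shmt1 read -1.63 at 2 h and -3.63 at 4 h in p53+/+, and 0.22 and -1.19 in p53-/-. The genotypes thus stood apart at both times, by -2.14 ± 0.26 (log2, SE; limma, adjusted p = 6.09e-06). Shmt2 read 1.00 and -0.09 in p53+/+, and 1.85 and 1.33 in p53-/-. Its difference was -1.14 ± 0.12 (limma, adjusted p = 8.97e-07). Ung read 0.41 and -1.01 in p53+/+, and 1.64 and 0.18 in p53-/-. At each time its p53+/+ array was the lower, though the p53+/+ array at 2 h was above the p53-/- array at 4 h, and the difference was -1.21 ± 0.20 (limma, adjusted p = 0.00027).

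Dut read 5.67 and 4.78 in p53+/+ against 6.61 and 5.94 in p53-/-, a difference of -1.05 ± 0.15 (limma, adjusted p = 4.3e-05). Dctd was not well above background on either irradiated p53+/+ array, at -4.25 and -5.30, against -2.56 and -3.75 in p53-/-. As measured it was 3.08-fold lower in p53+/+ (limma, adjusted p = 0.00921). The second Dctd probe did not pass, at -1.40 ± 0.68, and neither did the main one with normexp background correction, at -0.25 (log2; limma, adjusted p = 0.141 and 0.728). Tyms, Mthfd2 and Tk1 were lower by smaller amounts, -0.78 ± 0.21, -0.75 ± 0.21 and -0.61 ± 0.17 (log2, SE; limma, adjusted p = 0.0141, 0.0137 and 0.0142). Mthfd1 did not pass, at -0.13 ± 0.20 (limma, adjusted p = 0.653), and its arrays overlapped. Averaged over both times the second Shmt1 probe was lower in p53+/+ too, by -0.60 ± 0.22 (limma, adjusted p = 0.0493). It read -2.92 in p53+/+ and -1.70 in p53-/- at 2 h, but -2.82 and -2.83 at 4 h. Unlike the first probe, it thus showed the difference at 2 h only. The remaining Tyms probe gave 0.09 (limma, adjusted p = 0.749). With normexp background correction 4 of the 8 calls were left.

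**Figure D4:**
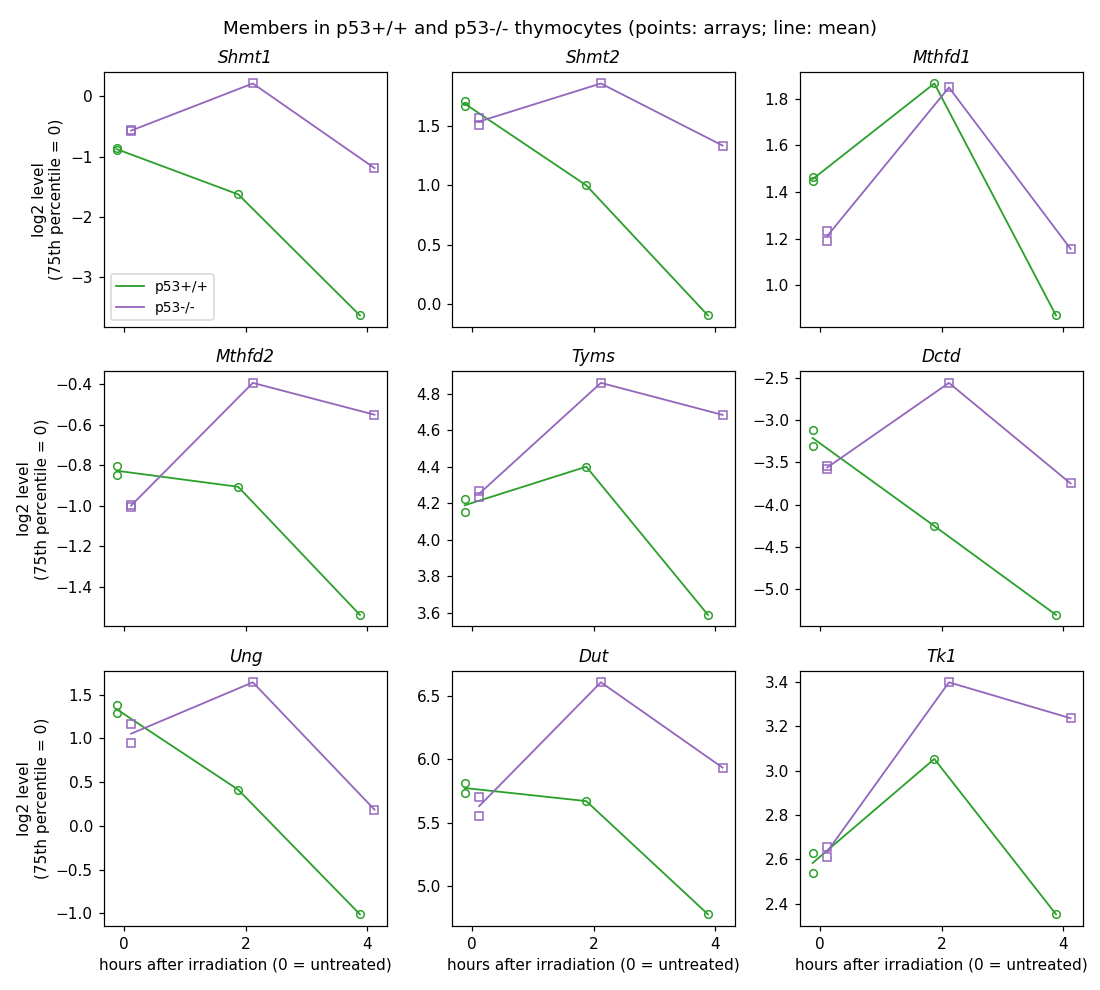
Levels of the 9 members (log2, 0 = 75th percentile of the array) against hours after irradiation in p53+/+ (circles) and p53-/- (squares), with a point for each array and lines through the means. At 2 h every member but Mthfd1 is lower in p53+/+, and at 4 h all 9 are.

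These calls lean on single arrays, since each irradiated group held 1 array at each time and is assumed to vary like the other groups. Leaving out 1 of these arrays left its genotype with the other time alone, set against the mean of both times in the other genotype. The counts without an array therefore mix time with genotype. Without the p53+/+ 4 h array 1 of the 8 calls was left, Shmt2, and without the p53-/- 2 h array 3 were left. With 2 h alone 4 members were called lower and with 4 h alone 7. At 2 h the differences between p53+/+ and p53-/- were -1.84 for Shmt1, -0.85 for Shmt2, -1.69 for Dctd, -1.23 for Ung and -0.94 for Dut, and at 4 h they were -2.45, -1.42, -1.55, -1.20 and -1.16. The irradiated p53+/+ arrays shared a slide, and the irradiated p53-/- arrays shared another, with 1 untreated array of each genotype on both. With the slide as a fixed block 5 members were called, and Mthfd2, Tyms and Dctd were not (limma, adjusted p = 0.057, 0.1 and 0.119).

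Irradiated arrays are now set beside untreated ones within each genotype, as a description. In p53+/+ 8 of 9 members had a lower mean after irradiation, where 23.4% of all genes were called either way (limma, adjusted p under 0.05). Of all genes, 9.83% were called lower, and nothing is read from the members' count. The difference of Ung was -1.63 ± 0.20 (log2, SE). Shmt1 was 3.38-fold lower (-1.76 ± 0.26), Dctd 2.96-fold as measured near background, Shmt2 2.35-fold (-1.23 ± 0.12) and Dut 1.46-fold (-0.55 ± 0.15). Each of these, and Mthfd2, had both irradiated p53+/+ arrays below both untreated ones. Within the slide that held both irradiated p53+/+ arrays and 1 untreated one, the differences were -1.77 for Shmt1, -1.59 for Ung, -1.47 for Dctd, -1.21 for Shmt2 and -0.51 for Dut. Mthfd2, Tyms, Mthfd1 and Tk1 had -0.40 ± 0.21, -0.19 ± 0.21, -0.09 ± 0.20 and 0.12 ± 0.17 (log2, SE). The second Shmt1 probe gave -0.36 ± 0.22, so that the difference of Shmt1 in p53+/+ was large on 1 probe only. The second Dctd probe gave -1.60 ± 0.68 and the remaining Tyms probe 0.32. With normexp background correction Shmt1 had -0.91 and Dctd -0.38.

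In p53-/- 8 of 9 members had a higher mean after irradiation, where 1.06% of all genes were called either way (limma, adjusted p under 0.05). Of all genes, 0.754% were called higher, and nothing is read from the members' count. Untreated arrays of Dut were at 5.56 and 5.71 and its irradiated arrays at 6.61 and 5.94, a difference of 0.64 ± 0.15 (log2, SE). Tk1 read 2.66 and 2.61 untreated and 3.40 and 3.23 irradiated, a difference of 0.68 ± 0.17. Both had their irradiated arrays above their untreated ones, as did Tyms and Mthfd2, at 0.52 ± 0.21 and 0.53 ± 0.21. Shmt1, Shmt2 and Ung had differences of 0.08, 0.06 and -0.14, since each was higher at 2 h and lower at 4 h than untreated. Ung, for example, differed from untreated p53-/- by 0.59 at 2 h and by -0.87 at 4 h. Within the p53-/- slide Dut was 0.56 higher. With 4 h alone 5 members, and not 1, had a lower mean than untreated.

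The response of p53+/+ minus that of p53-/- was negative for 9 of 9 members, with a median of -1.19 beside 0.07 over all genes tested. It contains the p53+/+ falls and is given as a description too. It was -1.97 ± 0.59 for Dctd, -1.84 ± 0.37 for Shmt1, -1.49 ± 0.28 for Ung, -1.29 ± 0.17 for Shmt2 and -1.19 ± 0.21 for Dut (log2, SE). Mthfd2 had -0.92 ± 0.29, Tyms -0.71 ± 0.30, Tk1 -0.56 ± 0.24 and Mthfd1 -0.38 ± 0.28. All 9 members were negative, where 2.15% of all genes were called lower and 5.32% in either direction (limma, adjusted p under 0.05). Nothing is read from the members' count. The second Shmt1 probe gave -0.29 ± 0.31 and the second Dctd probe -1.66 ± 0.97. With normexp background correction Shmt1 had -0.94 and Dctd -0.48. The comparisons of p53+/+ and p53-/- share their arrays and do not support each other.

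**Figure D5:**
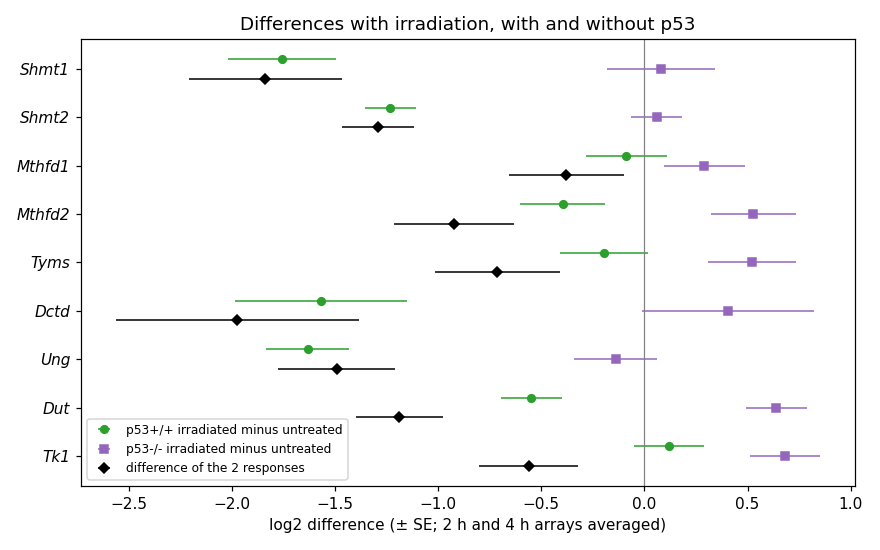
Difference between irradiated and untreated arrays (log2, ± SE, 2 h and 4 h averaged) in p53+/+ (circles) and p53-/- (squares), and the difference of these responses (diamonds), for the 9 members. All 9 diamonds lie below 0, from -0.38 for Mthfd1 to -1.97 for Dctd.

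Other enzymes of folate were called in both directions at 4 h. Of 16 genes of the folate cycle tested beside the 9 members, 7 rose and 4 fell at 4 h in P72, and 5 rose and 5 fell in R72 (limma, adjusted p under 0.05). Of all genes tested, 36.7% were called higher at 4 h and 19.5% lower in P72, and 29.7% and 14.7% in R72. The counts in P72 and the rises in R72 were thus near these shares, while falls in R72 were a larger part. No course of the folate genes is read from these counts. The folate importer Slc19a1 fell by 0.51 and 0.49 on the log2 scale, and the proton-coupled folate transporter Slc46a1 rose by 1.41 and 0.96. The median over the 16 was -0.06 in P72 and -0.03 in R72, beside 0.12 and 0.11 over all genes. Between irradiated p53+/+ and p53-/- 3 were higher and 3 lower, where 13.4% of all genes were called higher and 8.23% lower.

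The lists for serine, purines and pyrimidines are read against the same shares of all genes, 19.5% called lower in P72 at 4 h and 14.7% in R72. Called higher at 4 h were 36.7% and 29.7%. Between irradiated p53+/+ and p53-/- 8.23% of all genes were called lower and 13.4% higher. Of 6 genes of serine synthesis and glycine cleavage 5 fell in P72 and 4 in R72, 0 rose, and 5 were lower in irradiated p53+/+ than in p53-/- (limma, adjusted p under 0.05). Psat1, a step of serine synthesis, fell by 1.27 in P72 and 1.28 in R72, and Gcsh of the glycine cleavage system fell by 1.55 and 1.24. Of 13 genes of purine synthesis 11 fell in P72 and 12 in R72, 0 rose, and 9 were lower in irradiated p53+/+. Gart and Atic, which use formyl folate, fell by 1.42 and 1.29 in P72. Of 24 genes of pyrimidine and deoxynucleotide supply 14 fell and 2 rose in P72, 13 fell and 3 rose in R72, and 10 were lower and 1 higher in irradiated p53+/+. Dctpp1, a dCTP pyrophosphatase, fell by 1.65 and 1.58, while Samhd1, which breaks down deoxynucleotides, rose by 1.23 in P72. The median differences at 4 h in P72 were -0.56 for serine and glycine, -0.69 for purines and -0.44 for pyrimidines, beside 0.12 over all genes.

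Genes of base excision repair were called in both directions. Of 25 genes tested beside Ung, 11 fell and 5 rose in P72 at 4 h, and 9 fell and 2 rose in R72 (limma, adjusted p under 0.05). Of all genes, 36.7% were called higher at 4 h and 19.5% lower in P72, and 29.7% and 14.7% in R72. Rises were thus a smaller part here than over all genes, and falls a larger one. Apex1, the endonuclease that acts after Ung, fell by 1.41 and 1.43, and Pcna, the replication clamp, fell by 1.17 and 1.15. Apobec1, a cytidine deaminase that makes uracil, rose by 2.80 ± 0.15 and 2.55 ± 0.15 (log2, SE), and the glycosylase Neil1 rose by 1.77 and 1.44. The response of 6 of 24 tested differed between p53+/+ and p53-/-, 3 in each direction, where 3.17% of all genes were called higher and 2.15% lower. Apobec1 was among them, with 2.52 ± 0.28, as were Nthl1 with 0.93, Neil1 with 1.14, Apex1 with -1.08 and Pcna with -0.98 (limma, adjusted p from 3.4e-06 to 0.0145).

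Replication genes, which Tyms, Dut and Tk1 serve with nucleotides, were mostly lower at 4 h and few of them at 2 h. Of 31 tested, 3 fell and 1 rose at 2 h in P72, and 28 fell and 0 rose at 4 h, with a median of -0.72 (limma, adjusted p under 0.05). In R72 6 fell at 2 h and 28 at 4 h. At 2 h 9.92% of all genes were called higher and 4.61% lower in P72, and 6.42% and 6.35% in R72. At 4 h these shares were 36.7% and 19.5% in P72, and 29.7% and 14.7% in R72. In irradiated p53-/- 8 rose and 0 fell, and in irradiated p53+/+ 4 fell and 1 rose. Of all genes, 0.754% were called higher and 0.302% lower in irradiated p53-/-, and 13.6% and 9.83% in irradiated p53+/+. Mcm6, a subunit of the replicative helicase, was lower in irradiated p53+/+ than in p53-/- by -1.12 ± 0.20 (log2, SE; limma, adjusted p = 7e-04). Of 17 genes known to respond to Myc or Atf4, 9 fell and 4 rose in P72 at 4 h, and 9 fell and 2 rose in R72. Beside the same 4 h shares of all genes, rises were a smaller part here and falls a larger one. Srm, which makes spermidine, fell by 2.11 and 2.00, and Myc itself was lower in irradiated p53+/+ than in p53-/- by -2.49 ± 0.45 (log2, SE; limma, adjusted p = 0.000649). Asns, asparagine synthetase, differed between P72 and R72 over all times by -2.39 ± 0.09 (log2, SE; limma, adjusted p = 1.01e-12).

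Summed levels of markers of other cell types differed between the times too. The summed linear signal of 10 macrophage markers, as a multiple of the 75th percentile, was 29.7 to 56.4 in P72 at 0 h and 79.1 to 107 at 4 h, and 48.6 to 72.3 and 68.9 to 107 in R72. In p53+/+ it was 41.9 and 42.0 untreated and 71.9 at 4 h, and in p53-/- it was 55.0 and 55.5 untreated and 51.8 at 4 h. For 10 markers of thymic epithelium it was 13.0 to 31.9 and 57.5 to 84.5 in P72, 34.6 and 35.4 untreated and 58.6 at 4 h in p53+/+, and 39.9 and 40.9 untreated and 22.1 at 4 h in p53-/-. The 9 neutrophil markers summed to 34.7 to 61.9 and 70.0 to 145 in P72, to 28.9 and 29.7 and then 87.4 in p53+/+, and to 38.4 and 38.5 and then 47.6 in p53-/-. In R72 the epithelial sums were 36.2 to 46.9 at 0 h and 60.4 to 89.8 at 4 h. The neutrophil sums of R72 were 67.1 to 86.3 and 66.8 to 137. Untreated R72 arrays thus lay above untreated P72 arrays in both sums, with no overlap. Between 0 h and 4 h the macrophage and neutrophil sums of R72 overlapped. Macrophage, epithelial and neutrophil sums were higher at 4 h than untreated in P72 and p53+/+. The 6 erythroid markers went the other way in p53+/+, from 137 on both untreated arrays to 20.02 at 4 h, and summed to 139 and 141 and then 78.0 in p53-/-. In P72 they were at 39.3 to 78.3 at 0 h and 30.7 to 86.3 at 4 h, and in R72 at 36.8 to 67.8 and 28.1 to 64.2. The 7 markers of double negative thymocytes, the precursors of the double positive cells, summed to 4.12 to 5.84 at 0 h and 8.19 to 8.97 at 4 h in P72, and to 4.49 to 5.18 and 5.08 to 6.76 in R72. In p53+/+ they were at 4.95 and 5.11 untreated and 10.9 at 4 h, and in p53-/- at 6.21 and 6.37 and then 6.11. Sums of 9 dendritic cell markers were 4.48 to 6.78 and 10.5 to 12.3 in P72, and those of 7 B cell markers 5.33 to 7.36 and 5.47 to 6.63. The sum of the 15 double positive thymocyte markers was 1166 to 1412 in P72 at 0 h and 1244 to 1353 at 4 h. On the P72 arrays at 0 h and 4 h 10 of 10 macrophage markers, 9 or 10 of 10 epithelial, 7 to 9 of 9 neutrophil and 4 or 5 of 6 erythroid markers were well above background. The part of these cells in the results on the members was not tested.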

How the data were processed

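RNA of 32 thymocyte pools was measured on 1-colour Agilent arrays. The authors deposited scanner output with a processed intensity for every spot, made by Feature Extraction 9.5.3.1 with its spatial detrending, per the file headers (9.5.3 in the submitters' processing notes). The authors also deposited a table of log2 intensities, whose scaling is not given in the sources used here and whose column medians are 6.20 to 6.23. It served as an alternative. Its columns correlated with the scanner values at 0.948 or more.

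Spots of a probe were averaged, flagged outlier spots (0.223% of values) were set to missing, and log2 processed intensities were scaled to the 75th percentile of each array. No value was saturated. A gene was read from its brightest probe on average, and its other probes are described beside it. Names came from the files, updated by accession to RefSeq for 5193 of 23075 matched probes.

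Tests were two-sided contrasts in limma 3.58.1 (R 4.3.3) with Benjamini-Hochberg adjustment over all genes tested. P72 and R72 comparisons used their 24 arrays, and p53+/+ and p53-/- comparisons all 32, in 17 comparisons. Figures were drawn in Python 3.11.15 (matplotlib 3.10.9) and input was parsed by R's jsonlite 2.0.0 and data.table (version 1.17.8). The fits were tested on simulated data. Contrasts of irradiated with untreated arrays were fitted likewise but are described without a test for the members. The number of arrays limits the precision.

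The members, gene lists, tests and alternatives were chosen with earlier results of these data known. Named beside the members are, of each list and comparison, genes with the smallest p past the threshold, and for each member the 3 genes of highest correlation. A few genes that the rule names are not reported here. Alternatives were other background correction, scalings, filters, probe rules and blocks, the authors' table, single times and leaving out each array. Added after seeing the data were the other probes and the untreated p53+/+ and p53-/- pairs averaged to 1 array each.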

Additional observations from a re-analysis of the deposited data

Results flagged for a closer look

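In 54 groups of 4 arrays, 6 for each member, 4 held an array whose gap to its nearest neighbour was over 0.829 of the range, the Dixon limit that chance passes in about 1 in 20 groups. Tyms in R72 at 4 h was lowest in replicate 3, at 3.22 (log2), with its neighbour at 3.64. Ung in P72 at 2 h was highest in replicate 2, at 0.36, although the other 3 arrays were at 0.30 to 0.31. Dctd in P72 at 2 h was lowest in replicate 1, at -5.29, which was not well above background, and Dctd in R72 at 4 h was highest in replicate 4, at -4.93.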

How the results depend on the processing

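The number of members with a lower mean at a later time in P72 and R72 stayed within 1.5 times its value under every alternative run, and leaving out each array in turn gave 8 to 8 or 9 to 9. No member was called between P72 and R72, or in their responses, under any alternative but the remaining Tyms probe, A_51_P375761, which gave 1 call at 2 h and 1 over all times, and leaving out each array gave 0 to 0. For irradiated p53+/+ against p53-/- (8 called), normexp background correction gave 4, a fixed slide block 5 and 2 h alone 4. For p53-/- irradiated against untreated (1 member with a lower mean), 2 h alone gave 0, 4 h alone 5 and second probes 3. Leaving out each array gave 1 to 8 calls between irradiated p53+/+ and p53-/- and 0 to 0 untreated. It gave 6 to 9 members with a lower mean in irradiated p53+/+ (8 with all arrays), 0 to 5 in irradiated p53-/-, and 8 to 9 with a negative difference of responses (9 with all arrays). Where the array left out was the only one of its group, the other time stood for that genotype, so that time plays into these ranges.

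Signs turned for Dctd under normexp in P72 at 4 h against 0 h (0.19) and 2 h (0.46), and on second probes for Mthfd1 in P72 at 2 h (-0.039), Shmt1 in P72 at 4 h against 0 h (0.039) and 2 h (0.53) and in R72 at 4 h against 2 h (0.37), and Dctd in P72 at 4 h against 2 h (0.70). The remaining Tyms probe turned P72 at 4 h (0.081), P72 against R72 at 2 h (0.55) and over all times (0.42), and irradiated p53+/+ against p53-/- (0.088). It also had the other sign, for small or uncalled values, in P72 and R72 at 2 h (0.37 and 0.080), irradiated p53+/+ (0.32) and untreated p53+/+ against p53-/- (0.73). The cause was not tested. Normexp values correlated with the main ones at 0.877 to 0.980 on an array. Same-numbered arrays correlated at over 0.1 in all 4 pairs for some pairs of groups, such as P72 and R72 at 4 h (0.16 to 0.54), but not for others, with -0.27 as the lowest value between P72 and R72. Since not every pair was over 0.1, the numbers were not taken to pair the arrays, and the block stands here only. With the replicate number as a block the counts were the same in all 12 comparisons of P72 and R72, 8 and 9 members lower and 0 called between genotypes. Every array correlated best with its own number in some pairs of groups and not in others. Signal near background limits Dctd most.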
